A study of Homo sapiens with 20 samples.

Results

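The cyclin-dependent kinase (CDK) inhibitor genes were followed through induction of p53 in a human mammary epithelial line. The genes were taken by symbol from the array platform's table of probe annotations, from transcript clusters (the probes of 1 transcription unit) that carry 1 gene symbol. Of 8 genes listed, 7 were measured (CDKN1A, CDKN1B, CDKN1C, CDKN2A, CDKN2B, CDKN2D and CDKN3), each by 1 cluster, among 18417 genes in all, and CDKN2C is not analysed here. The cells were B5/589, an immortalized line with an inducible p53 transgene that all 5 groups carried. Doxycycline, the inducer, was applied for 12 h at 3 or 5 ng, or for 24 h at 0, 3 or 5 ng, as doses labelled without a volume, and 4 Affymetrix arrays were hybridised for each group. Uninduced cells were collected at 24 h only, so a 12 h group differs from them in both dose and time, which cannot be told apart. Separate cultures for the 4 arrays are not stated in the labels, and p-values therefore measure the spread between these arrays, which may be technical. In RNA pooled from a plate, fewer cells expressing a gene and less RNA per cell cannot be told apart.

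CDK inhibitors hold back the kinases that drive the cell cycle. The CIP/KIP proteins, p21 (CDKN1A), p27 (CDKN1B) and p57 (CDKN1C), bind complexes of a CDK with its cyclin. The INK4 proteins, among them p16 (CDKN2A), p15 (CDKN2B) and p19 (CDKN2D), bind CDK4 and CDK6 and keep them from cyclin D. CDKN3 is a phosphatase that removes an activating phosphate from CDK2, and its transcript is known to be high in dividing cells. CDKN1A is a classical transcriptional target of p53.

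The promoters of the 4 genes whose signal changed at 24 h are shown because CDKN1A moved one way and CDKN1B, CDKN2A and CDKN3 the other. Each is the RefSeq window on GRCh38.p14 from 250 bases before to 50 bases after a transcription start, printed 5′ to 3′ on the gene's own strand. Capitals mark the SP1 core GGGCGG, the CCAAT box CCAAT and the cell cycle homology region TTTGAA, each searched on both strands.
CDKN1A (chr6:36678464-36678763, plus strand): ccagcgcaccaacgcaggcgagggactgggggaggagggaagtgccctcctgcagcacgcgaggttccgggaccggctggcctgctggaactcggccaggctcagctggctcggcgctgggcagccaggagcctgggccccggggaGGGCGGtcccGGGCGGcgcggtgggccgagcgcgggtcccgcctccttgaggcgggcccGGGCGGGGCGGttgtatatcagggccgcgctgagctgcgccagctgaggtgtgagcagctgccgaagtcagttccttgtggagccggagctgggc
CDKN1B (chr12:12717118-12717417, plus strand): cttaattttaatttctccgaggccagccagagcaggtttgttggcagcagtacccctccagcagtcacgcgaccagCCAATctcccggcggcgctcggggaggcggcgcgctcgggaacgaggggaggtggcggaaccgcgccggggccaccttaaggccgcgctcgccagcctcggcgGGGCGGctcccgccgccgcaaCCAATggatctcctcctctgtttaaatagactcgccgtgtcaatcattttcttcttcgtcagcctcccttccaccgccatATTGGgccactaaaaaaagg
CDKN2A upstream start (chr9:21995275-21995574, minus strand): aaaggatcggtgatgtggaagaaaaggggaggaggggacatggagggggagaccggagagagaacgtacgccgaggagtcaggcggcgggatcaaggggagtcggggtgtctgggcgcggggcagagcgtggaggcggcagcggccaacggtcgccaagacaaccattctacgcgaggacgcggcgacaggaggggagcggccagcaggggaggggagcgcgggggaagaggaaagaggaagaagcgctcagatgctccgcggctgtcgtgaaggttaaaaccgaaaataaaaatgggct
CDKN2A downstream start (chr9:21974808-21975107, minus strand): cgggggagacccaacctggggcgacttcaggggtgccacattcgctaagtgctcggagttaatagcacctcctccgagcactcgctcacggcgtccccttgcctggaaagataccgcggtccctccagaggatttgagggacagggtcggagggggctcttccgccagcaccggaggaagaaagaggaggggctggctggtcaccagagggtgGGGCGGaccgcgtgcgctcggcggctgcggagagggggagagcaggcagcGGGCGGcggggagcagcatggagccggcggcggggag
CDKN3 (chr14:54396757-54397056, plus strand): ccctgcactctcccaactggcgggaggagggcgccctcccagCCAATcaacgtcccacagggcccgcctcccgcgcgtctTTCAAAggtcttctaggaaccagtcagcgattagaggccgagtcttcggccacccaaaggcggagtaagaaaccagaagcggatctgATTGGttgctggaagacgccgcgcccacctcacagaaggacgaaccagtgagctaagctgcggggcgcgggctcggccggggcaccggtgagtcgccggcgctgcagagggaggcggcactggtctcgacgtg
The CDKN1A window held 4 SP1 cores, of which the last 2 share a base, and no CCAAT box or TTTGAA. The CDKN1B window held 3 CCAAT boxes, of which the last lies on the reverse strand after the start, and 1 SP1 core. CDKN2A has a window at each of its 2 starts. The downstream one held 2 SP1 cores, of which the last lies after the start, and no CCAAT box. The upstream one held none of the motifs. The CDKN3 window held 2 CCAAT boxes and 1 TTTGAA, which lies on the reverse strand 170 bases before the start, and no SP1 core. Of the genes not called as deposited, CDKN2B had a window with 2 SP1 cores and no CCAAT box. That of CDKN2D held 3 SP1 cores, the last of them after the start, and 1 CCAAT box. Neither window held TTTGAA. Whether any motif goes with the direction of change was not tested. Of all 35116 windows of this length, 45% held GGGCGG, 34.6% held CCAAT and 15.2% held TTTGAA. The E2F letters TTTGGCGC, TTTCGCGC and TTTCCCGC were in 2.74% of all windows. The p53 half-site motif RRRCWWGYYY (R is A or G, W is A or T, Y is C or T) was in 6.63%. Neither was in any of the windows of the 6 measured genes that had one. Sequence outside these windows was not searched, so p53 sites farther from the starts would not be seen.

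The deposited values are log2 signals, and array medians ran from 4.54 to 5.54. Differences are therefore given as deposited, and many, though not all, also after quantile normalization between arrays. Quantile normalization moved the median difference over all genes from -0.24 to 0.07 for 5 ng against 0 ng at 24 h and from -0.23 to 0.08 for 3 ng against 0 ng at 24 h. Within groups, the correlation of the signal with the array median was 0.93 for CDKN1C, 0.91 for CDKN2B, 0.74 for CDKN1B, 0.65 for CDKN2D, 0.59 for CDKN1A, 0.56 for CDKN2A and 0.50 for CDKN3. Each value is a Pearson correlation over the 20 arrays, between the deviations of both quantities from their group means. Every gene shares the brightness of its array. The part of brightness in these signals was not tested. Of the epithelial markers, KRT5, KRT14, KRT8, KRT18, ITGA6, EPCAM and CDH1 stayed at 9.30 or above on all 20 arrays, GATA3 lay between 6.72 and 7.43, KRT19 between 4.96 and 5.93 and ESR1 between 1.84 and 3.17. Of the fibroblast, endothelial and immune markers, DCN, PECAM1, PTPRC and LYZ did not exceed 2.08 on any array. COL1A1 lay between 5.77 and 6.74 and CD14 between 4.36 and 6.74. The others, COL1A2, COL3A1, PDGFRB, CDH5, VWF, KDR and CD3E, ran from 2.44 (lowest, CD3E) to 5.56 (highest, COL3A1). At 5 ng against 0 ng at 24 h as deposited, KRT5 (0.66), KRT14 (0.56), KRT8 (0.53) and CDH1 (0.41) rose. EPCAM (-0.85), CD14 (-1.43) and KDR (-0.59) fell, and 0 of 5 fibroblast markers were called, beside 4.52% of all genes up and 23.5% down. After quantile normalization 2 basal, 5 luminal or simple epithelial and 1 endothelial marker (VWF) rose. EPCAM and CD14 fell, 0 fibroblast markers were called and KDR was not called (-0.31, limma adjusted p = 0.0947). Over all genes 20.6% then rose and 17.2% fell. The log2 of the summed deposited signal of the 4 immune markers ran from 4.78 to 5.96 at 5 ng and from 6.15 to 6.90 at 0 ng at 24 h. That of the 4 endothelial markers ran from 5.07 to 5.74 at 5 ng and from 5.51 to 6.01 at 0 ng. For the 5 fibroblast markers it ran from 6.80 to 7.29 at 5 ng and from 7.28 to 7.59 at 0 ng. The part of these markers in the inhibitor genes' changes was not tested.

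At 24 h p53 induction moved the inhibitor genes in opposite directions. Of 7 measured inhibitor genes, 1 rose (CDKN1A) and 3 fell (CDKN1B, CDKN2A and CDKN3) at 5 ng against 0 ng, while over all genes 4.52% rose and 23.5% fell (limma, Benjamini-Hochberg adjusted p under 0.05). At 3 ng against 0 ng the same 4 genes were called, 1 up and 3 down, against 1.5% and 23% of all genes. After quantile normalization CDKN2B was also called up at both doses, with 20.6% of all genes up and 17.2% down at 5 ng and 15.4% up and 12.5% down at 3 ng. The median log2 difference of the 7 genes at 5 ng was -0.24, the same as over all genes.

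**Figure D1:**
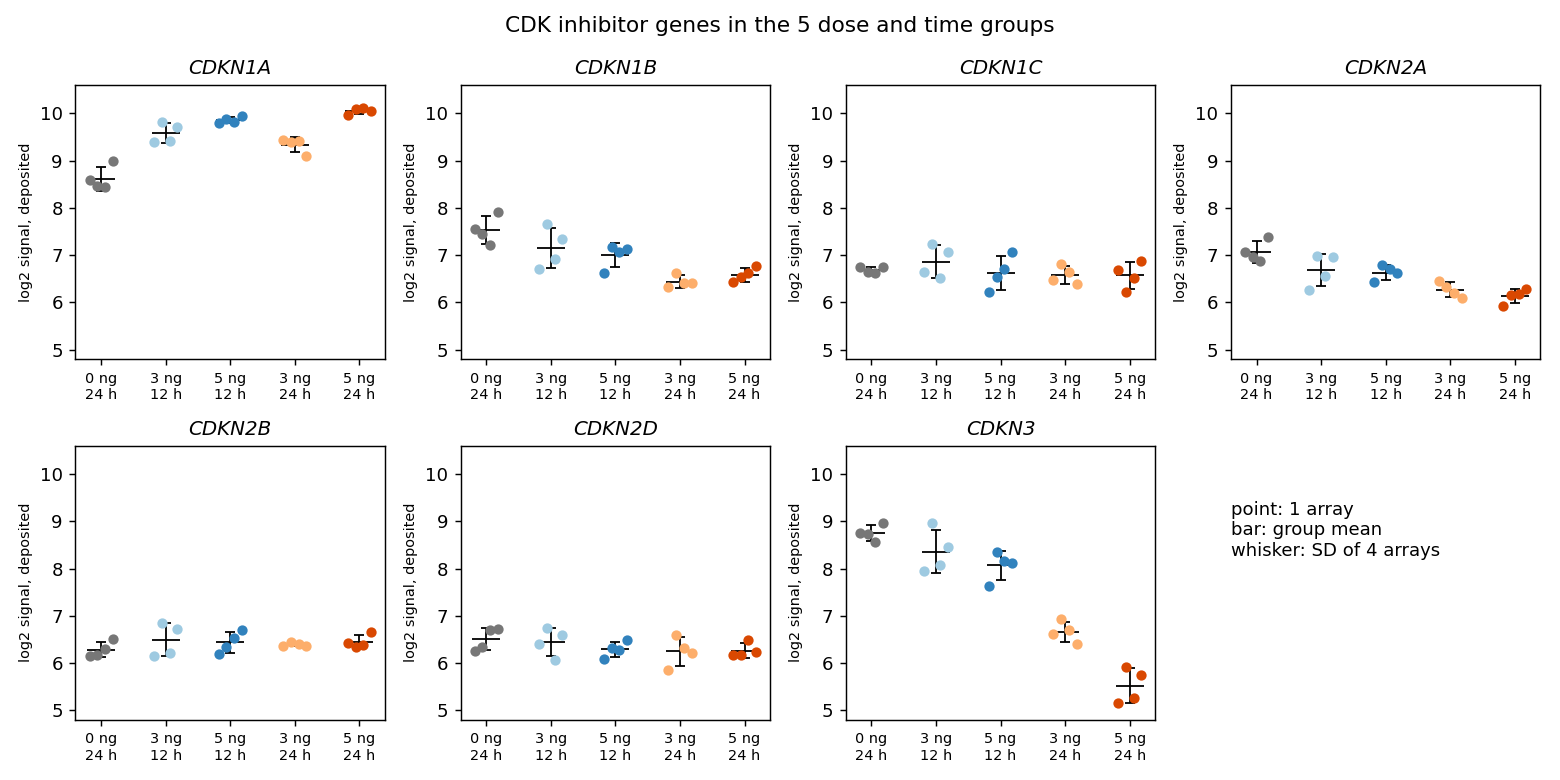
Deposited log2 signal (y axis) of the 7 measured CDK inhibitor genes on each of the 20 arrays, by dose and time (x axis), with group means and SDs of 4 arrays. CDKN1A is higher in every induced array than in any 0 ng array, and CDKN3 is lower at 24 h with 3 ng or 5 ng than in any other group.

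CDKN1A, which encodes p21, rose with dose at 24 h. Its log2 signal on the 4 arrays of each group at 24 h was 8.58, 8.47, 8.43 and 8.99 at 0 ng, then 9.43, 9.39, 9.42 and 9.10 at 3 ng, and 9.96, 10.10, 10.11 and 10.04 at 5 ng. The 3 groups do not overlap, and the 0 ng arrays include one that lies well above the other 3. The log2 difference was 1.44 at 5 ng against 0 ng (SE 0.14, limma adjusted p = 1.01e-07), a 2.70-fold rise that ranked 146 from the highest of 18417 genes. At 3 ng against 0 ng it was 0.72 (SE 0.14, limma adjusted p = 0.000948), and at 5 ng against 3 ng it was also 0.72 (SE 0.14, limma adjusted p = 0.00554). After quantile normalization these became 1.76, 1.19 and 0.57, all were called, and the value for 3 ng against 0 ng was over 1.5 times larger than as deposited.

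CDKN1A was already high at 12 h. It stood at 9.39, 9.82, 9.41 and 9.70 on the 3 ng arrays and at 9.79, 9.88, 9.81 and 9.94 on the 5 ng arrays, and both groups lay wholly above the 0 ng arrays at 24 h. The log2 difference from 0 ng was 0.96 at 3 ng (limma adjusted p = 0.000265) and 1.24 at 5 ng (limma adjusted p = 4.26e-06), with an SE of 0.14 for each. As deposited, CDKN1A was the single inhibitor gene called up in either 12 h comparison with 0 ng, where 1.57% of all genes rose at 3 ng and 3.44% at 5 ng. Between 5 ng and 3 ng at 12 h the difference was 0.28 (95% confidence interval -0.02 to 0.57, limma adjusted p = 0.82). After quantile normalization it was 0.29 and was called (limma adjusted p = 0.0224). No inhibitor gene was called between the doses at 12 h on the deposited scale, where 0.0217% of all genes rose and 0% fell, against 2.32% and 0.424% after quantile normalization.

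The order of CDKN1A group means ran from 0 ng at 24 h (8.62 ± 0.26, SD, n = 4) through 3 ng at 24 h (9.34 ± 0.16), 3 ng at 12 h (9.58 ± 0.21) and 5 ng at 12 h (9.86 ± 0.069) to 5 ng at 24 h (10.05 ± 0.069). Only the lowest step, 3 ng against 0 ng at 24 h, passed the test on the deposited scale. At 3 ng, 24 h minus 12 h was -0.25 (95% confidence interval -0.54 to 0.05, limma adjusted p = 0.37). At 5 ng, 24 h minus 12 h was 0.20 as deposited (limma adjusted p = 0.72) and 0.25 after quantile normalization, which was called (limma adjusted p = 0.01). The interaction of dose and time for CDKN1A was 0.44 (SE 0.20, unadjusted p = 0.0391 and adjusted p = 1 in limma). The interaction was called for 0 inhibitor genes and 0% of all genes in limma, although 391 of 18417 genes had an unadjusted p under 0.05, and no inhibitor gene was called after quantile normalization (0.00543% of all genes up and 0.0652% down).

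CDKN1B, which encodes p27, fell at 24 h with both doses. Its log2 signal at 24 h was 7.55, 7.44, 7.22 and 7.92 on the 0 ng arrays, 6.32, 6.63, 6.40 and 6.41 on the 3 ng arrays and 6.42, 6.53, 6.61 and 6.77 on the 5 ng arrays. All 8 induced arrays at 24 h lie below the 4 uninduced ones, and the 2 doses overlap. The log2 difference from 0 ng was -0.95 at 5 ng (SE 0.19, limma adjusted p = 0.000679) and -1.09 at 3 ng (SE 0.19, limma adjusted p = 0.000298). After quantile normalization the values were -0.55 and -0.66, both called and each more than 1.5 times smaller than as deposited. Between 5 ng and 3 ng at 24 h the difference was 0.14 (95% confidence interval -0.26 to 0.54, limma adjusted p = 0.998).

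At 12 h the CDKN1B means of both doses lay between those of the induced arrays at 24 h and the 0 ng arrays. The 3 ng arrays had 6.71, 7.66, 6.91 and 7.33 and the 5 ng arrays 6.63, 7.17, 7.07 and 7.13, of which the 3 ng arrays overlap the 0 ng arrays. The difference from 0 ng was -0.53 at 5 ng (limma adjusted p = 0.0663) as deposited and -0.30 after quantile normalization, where it was called (limma adjusted p = 0.0164). At 3 ng against 0 ng it was -0.38 (limma adjusted p = 0.285), and without 3 ng 12 h replicate 2 it was -0.55 and was called (limma adjusted p = 0.0470). At 3 ng CDKN1B fell between 12 h and 24 h, with a difference of -0.71 for 24 h minus 12 h (SE 0.19, limma adjusted p = 0.0337). That call was lost without 3 ng 12 h replicate 2 (-0.54) or 4 (-0.65) and without 3 ng 24 h replicate 1 (-0.67), 3 (-0.70) or 4 (-0.70), and it held after quantile normalization at -0.44 (limma adjusted p = 0.0017).

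CDKN1C, which encodes p57, was not called in any comparison on either scale. Its log2 signal ran from 6.21 to 6.88 at 5 ng and from 6.62 to 6.75 at 0 ng at 24 h, and these groups overlap. The difference at 24 h was -0.11 at 5 ng against 0 ng (limma adjusted p = 0.721) and 0.24 after quantile normalization (limma adjusted p = 0.0706), so its direction turned with the scaling.

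Among the INK4 genes, CDKN2A fell at 24 h. Its cluster is annotated with transcripts of both p16 and ARF, a protein read in another frame that protects p53 from MDM2, so the 2 products cannot be told apart. At 24 h its log2 signal was 7.06, 6.95, 6.87 and 7.39 at 0 ng, 6.46, 6.32, 6.20 and 6.10 at 3 ng, and 5.93, 6.15, 6.18 and 6.29 at 5 ng. Both induced groups lie below the uninduced one, and they overlap each other. The log2 difference from 0 ng was -0.93 at 5 ng (SE 0.16, limma adjusted p = 0.000193) and -0.80 at 3 ng (SE 0.16, limma adjusted p = 0.00142). After quantile normalization these were -0.55 and -0.41, both called and each more than 1.5 times smaller. At 12 h CDKN2A ran from 6.42 to 6.79 at 5 ng and from 6.26 to 6.98 at 3 ng. The 0 ng arrays ran from 6.87 to 7.39. The differences of -0.44 and -0.38 were not called as deposited (limma adjusted p = 0.0807 and 0.218). Neither was called after quantile normalization (-0.23 and -0.27). The 5 ng difference was called without the dimmest 30% of genes (-0.44, limma adjusted p = 0.0452). That at 3 ng was called under median centring (-0.37, limma adjusted p = 0.0409). The difference of 24 h minus 12 h at 5 ng was -0.49 as deposited (limma adjusted p = 0.129) and -0.31 after quantile normalization, which was called (limma adjusted p = 0.0303). At 3 ng it was -0.42 (limma adjusted p = 0.182), and it was called without 3 ng 12 h replicate 1 (-0.56, limma adjusted p = 0.0381).

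CDKN2B, which encodes p15 and lies beside CDKN2A on chromosome 9, was called after quantile normalization or median centring but not as deposited. As deposited it had 6.42, 6.35, 6.39 and 6.66 on the 5 ng arrays and 6.16, 6.17, 6.29 and 6.50 on the 0 ng arrays at 24 h, which overlap, and the difference was 0.18 (limma adjusted p = 0.473). After quantile normalization the means were 6.11 ± 0.11 at 0 ng, 6.57 ± 0.083 at 3 ng and 6.61 ± 0.044 at 5 ng at 24 h (SD, n = 4). The differences from 0 ng were then 0.50 at 5 ng (limma adjusted p = 3.72e-06) and 0.46 at 3 ng (limma adjusted p = 1.94e-05). At 12 h they were 0.32 at 5 ng (limma adjusted p = 0.000876) and 0.25 at 3 ng (limma adjusted p = 0.0106). Whether probes of the paralogues CDKN2A and CDKN2B pick up each other's RNA was not tested.

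CDKN2D, which encodes p19, was not called in any comparison on either scale. It ran from 6.17 to 6.49 at 5 ng and from 6.26 to 6.72 at 0 ng at 24 h, which overlap. The difference was -0.24 as deposited (limma adjusted p = 0.353) and 0.10 after quantile normalization (limma adjusted p = 0.607), again with the direction turned.

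CDKN3 had the widest change of the 7 genes at 24 h. Its log2 signal at 24 h was 8.76, 8.73, 8.56 and 8.97 at 0 ng, 6.61, 6.93, 6.69 and 6.41 at 3 ng, and 5.16, 5.92, 5.27 and 5.74 at 5 ng. The 3 groups do not overlap and step down with dose. The log2 difference was -3.23 at 5 ng against 0 ng (SE 0.22, limma adjusted p = 2.71e-10), a 9.40-fold fall that ranked 132 from the lowest of 18417 genes. At 3 ng against 0 ng it was -2.10 (SE 0.22, limma adjusted p = 4.08e-07), and at 5 ng against 3 ng it was -1.14 (SE 0.22, limma adjusted p = 0.00428). After quantile normalization they were -2.82, -1.65 and -1.18, and all were called. For 5 ng minus 3 ng at 24 h, CDKN1A was the 1 inhibitor gene that rose (1.79% of all genes, 5.96% after quantile normalization) and CDKN3 the 1 that fell (0.755%, 4.42% after quantile normalization). For the other 5 genes the 95% confidence intervals of that difference reached from -0.48 to 0.54 at their widest.

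Most of the fall in CDKN3 separated the 12 h from the 24 h arrays. At 12 h it had 7.94, 8.97, 8.07 and 8.46 at 3 ng and 7.63, 8.36, 8.17 and 8.12 at 5 ng. The 3 ng arrays overlap the 0 ng arrays, and the 5 ng arrays lie just below them. The difference of 24 h minus 12 h was -2.55 at 5 ng (SE 0.22, limma adjusted p = 5.35e-08) and -1.70 at 3 ng (SE 0.22, limma adjusted p = 2.45e-05), and on the quantile scale -2.39 and -1.47. CDKN3 was the 1 inhibitor gene that fell between 12 h and 24 h at 5 ng, where 3.55% of all genes fell and 0.424% rose (7.6% and 10.8% after quantile normalization, when 2 inhibitor genes fell and 1 rose). At 3 ng CDKN1B and CDKN3 fell, 2 genes against 4.36% of all genes down and 0.0706% up (6.06% and 9.92% after quantile normalization, when 2 inhibitor genes fell and 1, CDKN2B, rose). The interaction of dose and time for CDKN3 was -0.85 (SE 0.31, unadjusted p = 0.0122 and adjusted p = 1 in limma).

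At 5 ng for 12 h against 0 ng, CDKN3 was the 1 inhibitor gene that fell, against 11.5% of all genes (14.3% after quantile normalization, with 11.5% up), with a log2 difference of -0.69 (SE 0.22, limma adjusted p = 0.0386). After quantile normalization the value was -0.43 (limma adjusted p = 0.0503). The call was lost without 0 ng replicate 1 (-0.68), 2 (-0.69) or 4 (-0.61) and without 5 ng 12 h replicate 1 (-0.54), 3 (-0.72) or 4 (-0.70). At 3 ng for 12 h the difference was -0.40 (limma adjusted p = 0.337), and 0 inhibitor genes fell against 1.24% of all genes (8.57% after quantile normalization, with 6.61% up).

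**Figure D2:**
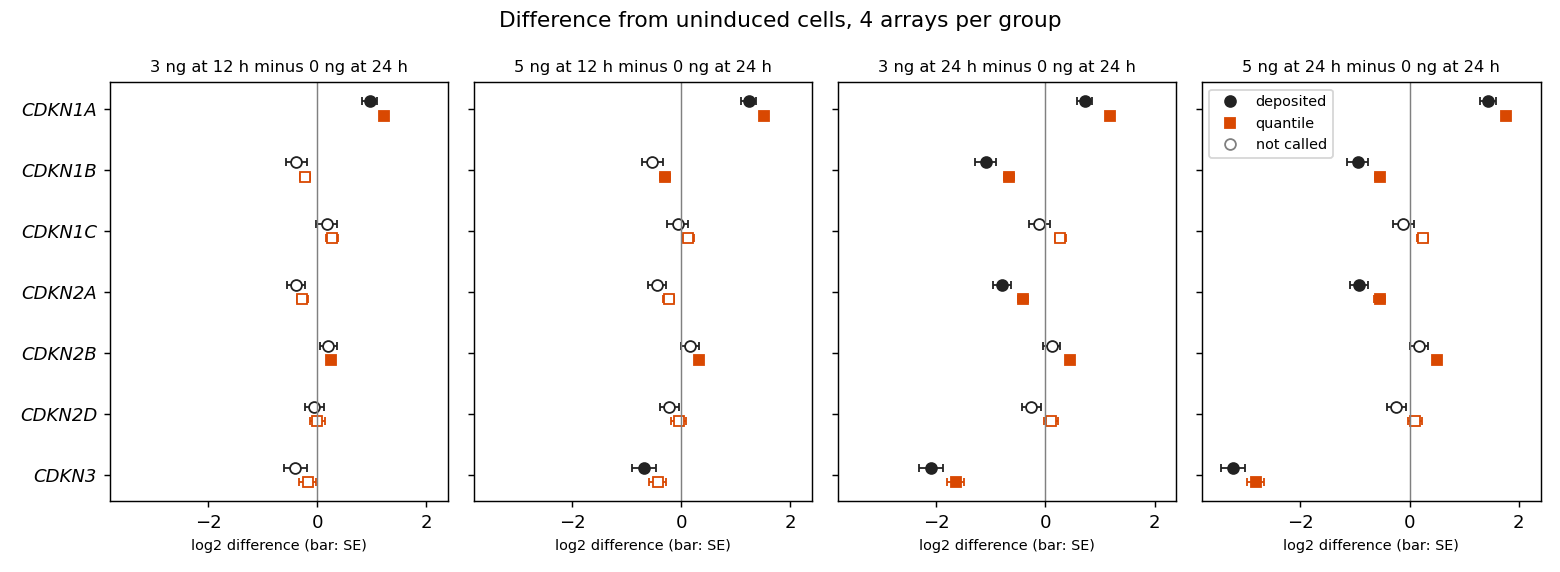
Log2 difference from 0 ng at 24 h (x axis, bars are the SE) of each inhibitor gene (rows) for the 4 induced groups, as deposited (circles) and after quantile normalization (squares), with open symbols for genes not called. CDKN1A is to the right of 0 in all 4 panels, at 1.44 for 5 ng at 24 h as deposited, and CDKN3 is farthest left at 24 h, at -3.23.

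**Figure D3:**
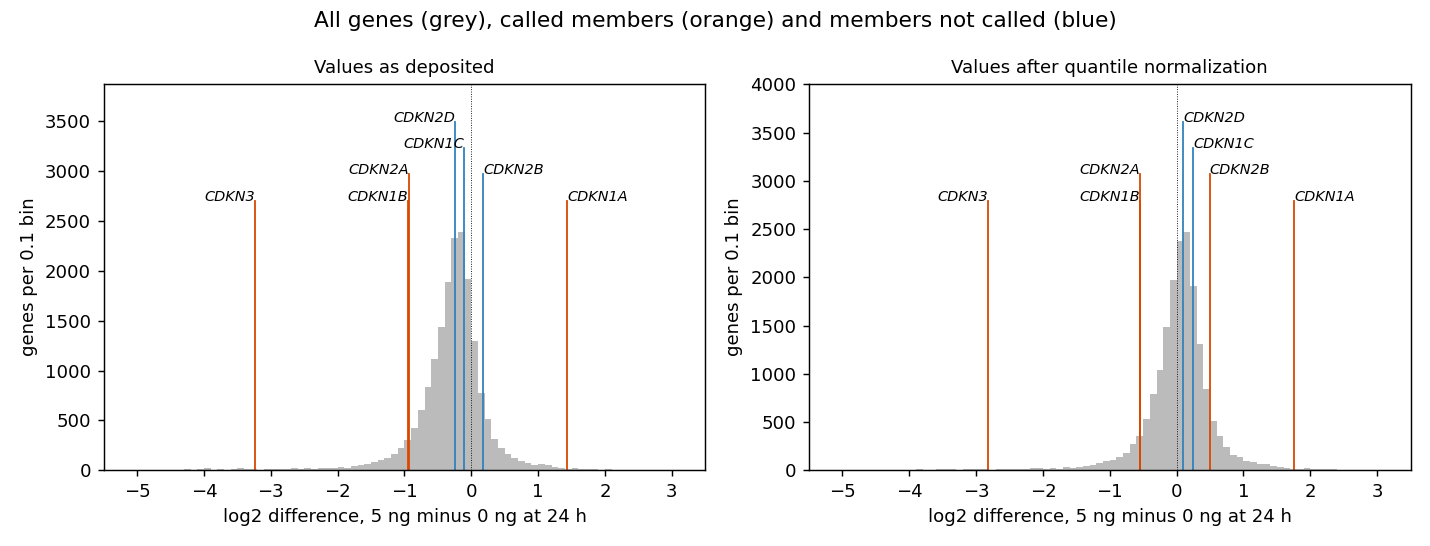
Number of genes per 0.1 bin of log2 difference (x axis) for 5 ng minus 0 ng at 24 h, as deposited (left) and after quantile normalization (right), with the 7 inhibitor genes as lines (orange where called). The bulk of genes is centred at -0.24 as deposited and 0.07 after quantile normalization, and CDKN3 and CDKN1A lie far out on either side in both.

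The genes outside the list whose signal was most like CDKN1A over the 20 arrays, as deposited, were LIMK2, SYK, PADI3, PGAP1, SEMA3B and MAP3K12. After quantile normalization their r ran from 0.970 to 0.992, and LIMK2 and SEMA3B ranked 1 and 2, SYK 14, PGAP1 16, PADI3 24 and MAP3K12 66. LIMK2, a kinase acting on the actin-severing protein cofilin, had a Pearson r of 0.986 with CDKN1A and a difference of 1.04 at 5 ng against 0 ng at 24 h. SYK, a tyrosine kinase, had an r of 0.985 and a difference of 1.51, and PADI3, which converts arginine to citrulline in proteins, an r of 0.983 and a difference of 2.42. The other 3 had an r from 0.978 to 0.981 and differences from 1.87 to 2.47. The genes most like CDKN3 as deposited were KIF14, a mitotic kinesin, CCNB2, a mitotic cyclin, CKAP2L, a spindle protein, and AURKA, a mitotic kinase, with an r from 0.995 to 0.997 (after quantile normalization they ranked 1, 2, 3 and 9). These differed from 0 ng by -4.74, -3.76, -4.41 and -3.58 at 5 ng for 24 h, in that order. These correlations describe 20 arrays in 5 groups that share their doses and times, and carry no test.

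**Figure D4:**
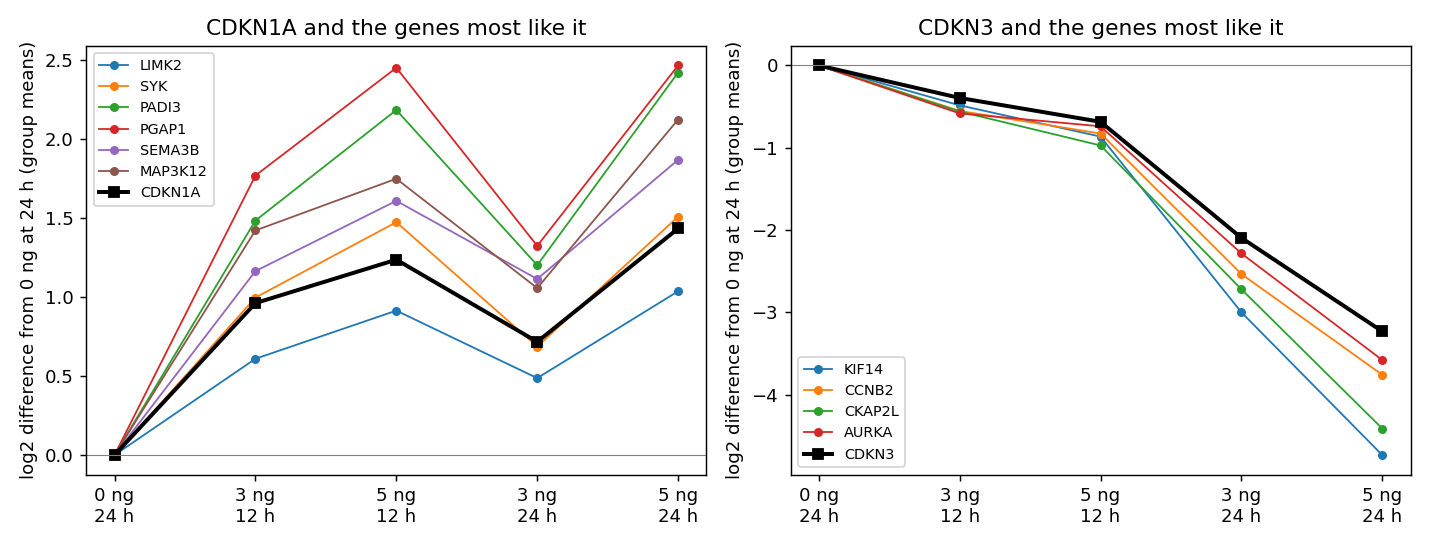
Group mean log2 difference from 0 ng at 24 h (y axis) by dose and time (x axis) for CDKN1A with the 6 genes most like it (left) and CDKN3 with the 4 most like it (right); lines join group means as an aid to the eye. CDKN1A and its neighbours are higher at 5 ng than at 3 ng at each time, and CDKN3 and its neighbours are lowest at 5 ng for 24 h.

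Most of the listed CDK genes fell at 24 h. CDK6, which INK4 proteins bind, was called down at 5 ng against 0 ng as deposited (-0.48, limma adjusted p = 0.0443). After quantile normalization CDK6 was not called (-0.13, limma adjusted p = 0.138). At 5 ng against 0 ng at 24 h, 4 of 5 CDK genes fell and 0 rose (3 of 5 after quantile normalization), beside 23.5% of all genes down and 4.52% up as deposited and 17.2% and 20.6% after quantile normalization, among them CDK1, the mitotic kinase, at -3.88, CDK2, the S phase kinase, at -2.48 and CDK4, a target of INK4 proteins, at -1.55 on the log2 scale. Of 8 cyclins 5 fell and 0 rose (6 fell after quantile normalization), led by CCNA2 (-4.30) and CCNE2 (-4.11), partners of CDK2, and CCNB2 (-3.76) and CCNB1 (-3.63), partners of CDK1. The 3 D-type cyclins were not called as deposited, with differences from -0.39 to -0.24, and CCND2 was called after quantile normalization at -0.16. Of 6 retinoblastoma family and E2F genes 4 fell, with RBL1 (p107) at -2.50 and E2F1 at -1.68, while RB1 (0.04) and RBL2 (0.05) were called only after quantile normalization, at 0.40 and 0.43. The list medians were -1.55 for the CDKs, -2.75 for the cyclins and -0.77 for the retinoblastoma and E2F genes, beside -0.24 over all genes. At 3 ng against 0 ng at 24 h, 4 CDKs, 6 cyclins and 4 retinoblastoma or E2F genes fell and 0 rose as deposited, beside 23% of all genes down and 1.5% up. After quantile normalization 3 CDKs, 5 cyclins and 3 retinoblastoma or E2F genes fell and 1 of the last list rose, beside 12.5% down and 15.4% up. At 5 ng for 12 h against 0 ng, 2 CDKs, 6 cyclins and 2 retinoblastoma or E2F genes fell and 0 rose as deposited, beside 11.5% of all genes down and 3.44% up. After quantile normalization 3 retinoblastoma or E2F genes fell and 2 rose, with the other counts as before, beside 14.3% down and 11.5% up.

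Of 11 genes that act in the turnover of CDK inhibitor proteins, 7 fell and 0 rose at 5 ng against 0 ng at 24 h, beside 23.5% of all genes down and 4.52% up. DTL, which recruits p21 to an ubiquitin ligase in S phase, had a log2 difference of -4.28, CDC20, an activator of the anaphase-promoting complex, of -3.44, and CKS2 and CKS1B, small CDK-binding proteins of which CKS1B helps mark p27 for destruction, of -2.64 and -2.49. All 6 genes of a list of other CDK regulators and p21 partners fell. Among them were the CDK-activating phosphatases CDC25C (-3.32), CDC25A (-3.01) and CDC25B (-2.74) and the CDK1-inhibiting kinase PKMYT1 (-2.52). Of 14 measured transcription factors known to regulate inhibitor genes, 1 rose and 7 fell. TP73, a relative of p53, rose by 1.41 (SE 0.17, limma adjusted p = 1.69e-06), and EZH2, a histone methyltransferase known to silence CDKN2A, fell by 2.19 on the log2 scale, ID1 by 1.20 and ETS2, an activator of CDKN2A, by 1.11. After quantile normalization the counts were 1 up and 7 down for turnover and 0 and 6 for regulators or partners. They were 4 and 6 for transcription factors, beside 20.6% of all genes up and 17.2% down. At 3 ng against 0 ng, 8 turnover genes, 6 regulators or partners and 9 transcription factors fell as deposited. In each list 0 rose, beside 23% of all genes down and 1.5% up. After quantile normalization 6 turnover genes and 6 regulators or partners fell and 0 rose. Of the transcription factors 4 fell and 3 rose, beside 12.5% down and 15.4% up. Between 5 ng and 3 ng at 24 h TP73 was the 1 transcription factor called as deposited, at 0.97. On that scale 3 turnover genes and 3 regulators or partners fell, beside 0.755% of all genes down and 1.79% up. After quantile normalization 1 transcription factor rose and 3 fell, and 5 turnover genes and 3 regulators or partners fell, beside 4.42% down and 5.96% up.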

How the data were processed

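Total RNA from 20 samples was hybridised to 20 arrays in 5 groups of 4, grouped by the labels. The values the authors deposited are log2 signals per transcript cluster. The submitters' processing notes list limma, Affymetrix Power Tools, GCRMA and GCOS, with no version; how arrays were scaled, and the build, are not given in the sources used here. Of 33297 clusters, 19460 had 1 symbol, and the brightest on average represented each of 18417 genes. No gene was filtered out. Depth does not apply to arrays, and their number limits precision.

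A model with 1 mean per group was fitted to all genes and arrays in limma 3.58.1 under R 4.3.3. It used eBayes and Benjamini-Hochberg adjustment over all genes in each of 9 comparisons. The fit was tried on simulated data with noise drawn independently for each gene and array. That noise lacks the brightness shared within real arrays, so the trial cannot speak to its effect on the calls. Differences are of deposited log2 values. A fold change is 2 to the power of the size of the difference. Alternatives were quantile normalization, median centring, the mean of clusters, leaving out the dimmest 30% of genes, eBayes with trend and robust settings, only the groups compared, a replicate block, and leaving out each array.

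The inhibitor genes and lists were chosen with earlier results of these data known. The text names every inhibitor gene, up to 4 called members of each list by size, and the 6 and 4 genes with the highest r to CDKN1A and CDKN3. A planned result and listed genes that no cluster names are not analysed here.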

Additional observations from a re-analysis of the deposited data

Results flagged for a closer look

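CDKN1A on the 3 ng arrays at 24 h had 1 array apart from the other 3, at 9.10 (replicate 4) beside 9.39, 9.42 and 9.43. The gap took up 0.879 of the group's range, above Dixon's critical value for a group of 4. Chance sets apart about 1 in 20 groups, and 35 groups of 4 arrays were screened. Without that array the difference of 5 ng minus 3 ng at 24 h was 0.64 (limma adjusted p = 0.0316) and that of 3 ng minus 0 ng was 0.80 (limma adjusted p = 0.000993), so both stayed called.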

How the results depend on the processing

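CDKN1A kept its direction and its call under every alternative in the 5 comparisons in which it was called as deposited. After quantile normalization it was also called for 5 ng minus 3 ng at 12 h (0.29) and for 24 h minus 12 h at 5 ng (0.25). Median centring gave 0.36 for 24 h minus 12 h at 5 ng, which was called, and turned 24 h minus 12 h at 3 ng to 0.015. The count of inhibitor genes called up was 2 under quantile normalization and under median centring for 3 ng and for 5 ng minus 0 ng at either time. It was 1 for 24 h minus 12 h at 5 ng under both, and 1 for 5 ng minus 3 ng at 12 h and for 24 h minus 12 h at 3 ng under quantile normalization. The count called down was 2 for 24 h minus 12 h at 5 ng under quantile normalization, and 2 under median centring for both doses at 12 h minus 0 ng. For 5 ng at 12 h minus 0 ng it was 3 without the dimmest 30% of genes (12891 kept) and 2 with trend and robust settings, and for 24 h minus 12 h at 3 ng it was 1 with only the groups compared, in which CDKN1B was not called (limma adjusted p = 0.0844). With arrays left out it ranged from 0 to 2 for 5 ng at 12 h minus 0 ng, from 0 to 1 for 3 ng at 12 h minus 0 ng and from 1 to 3 for 24 h minus 12 h at 3 ng. CDKN1B for 5 ng at 12 h minus 0 ng was called without 0 ng replicate 3 (-0.64) and without 3 ng 12 h replicates 1 or 2 (-0.53 each). A replicate block raised the count called down for 5 ng at 12 h minus 0 ng to 2 by adding CDKN1B (limma adjusted p = 0.0333) and changed no other call of an inhibitor gene. The shares of all genes called are given above for the deposited and quantile scales only. Counts under the other settings have no such share beside them, so they are not read as more or fewer than over all genes. Same-numbered arrays correlated from -0.18 to 0.50 (40 pairs of deviations from group means, across genes, median 0.058). Arrays with different numbers correlated from -0.44 to 0.35 (120 pairs, median -0.024). These overlapping ranges do not settle whether the replicate numbers pair the arrays.

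Quantile normalization turned the sign of CDKN1C to 0.27 (3 ng minus 0 ng at 24 h), 0.24 (5 ng minus 0 ng at 24 h), 0.13 (5 ng at 12 h minus 0 ng) and 0.11 (24 h minus 12 h at 5 ng), of CDKN2D to 0.10 (3 ng minus 0 ng at 24 h), 0.10 (5 ng minus 0 ng at 24 h), -0.0034 (5 ng minus 3 ng at 24 h), 0.0059 (3 ng at 12 h minus 0 ng), 0.10 (24 h minus 12 h at 3 ng) and 0.15 (24 h minus 12 h at 5 ng), of CDKN2A to 0.036 (5 ng minus 3 ng at 12 h), of CDKN2B to 0.064 (5 ng minus 3 ng at 12 h), 0.21 (24 h minus 12 h at 3 ng) and -0.027 (the interaction). Median centring turned the sign of CDKN1C to 0.16 (3 ng minus 0 ng at 24 h), 0.20 (5 ng minus 0 ng at 24 h), 0.035 (5 ng minus 3 ng at 24 h), 0.087 (5 ng at 12 h minus 0 ng) and 0.11 (24 h minus 12 h at 5 ng), of CDKN2D to 0.01 (3 ng minus 0 ng at 24 h), 0.07 (5 ng minus 0 ng at 24 h), 0.052 (24 h minus 12 h at 3 ng) and 0.14 (24 h minus 12 h at 5 ng), of CDKN2A to 0.083 (5 ng minus 3 ng at 12 h), of CDKN2B to 0.09 (5 ng minus 3 ng at 12 h) and 0.17 (24 h minus 12 h at 3 ng). With each array left out in turn, the sign turned in some fits for differences near 0, with lowest to highest values for CDKN1C of -0.21 to 0.0092 (5 ng minus 0 ng at 24 h), -0.11 to 0.12 (5 ng minus 3 ng at 24 h), -0.21 to 0.076 (5 ng at 12 h minus 0 ng) and -0.19 to 0.10 (24 h minus 12 h at 5 ng), for CDKN2B of -0.0083 to 0.10 (5 ng minus 3 ng at 24 h), -0.16 to 0.07 (5 ng minus 3 ng at 12 h), -0.20 to 0.025 (24 h minus 12 h at 3 ng), -0.065 to 0.10 (24 h minus 12 h at 5 ng) and -0.01 to 0.22 (the interaction), for CDKN2D of -0.11 to 0.14 (5 ng minus 3 ng at 24 h), -0.15 to 0.078 (3 ng at 12 h minus 0 ng) and -0.10 to 0.042 (24 h minus 12 h at 5 ng), for CDKN1B of -0.30 to 0.017 (5 ng minus 3 ng at 12 h), for CDKN2A of -0.20 to 0.04 (5 ng minus 3 ng at 12 h) and -0.17 to 0.068 (the interaction). The cause of these turns was not tested.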
